A study of Homo sapiens with 24 samples.

Results

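A set of 10 enzymes that build phospholipids or exchange their fatty acyl chains was followed by RNA level in Huh7 cells, a human hepatoma line, with and without a knockout of ABHD6. The genes are LPCAT1, LPCAT3, MBOAT7, PCYT1A, PCYT2, PEMT, CEPT1, CHKA, PISD and PTDSS1. They were chosen by symbol from the pathway, with earlier results of these data known. All 10 were found by Ensembl identifier in GENCODE release 29, among the 58024 gene rows of the deposited table. The groups were ABHD6 knockout (KO) and wild-type (WT) Huh7 cells, harvested from basal medium before treatment (0 h) or from medium with 800 µM of the saturated fatty acid palmitic acid after 24 h or 48 h. There were 4 libraries in each of the 6 groups, 24 in all. ABHD6 is a serine hydrolase that cleaves monoacylglycerols and lysophospholipids. Every treated library was compared with cells taken at 0 h, since no group had the same time in culture without the acid, so palmitic acid and time in culture cannot be told apart. Separate cultures behind the 4 libraries and the number of KO clones are not stated in the labels, so a p-value here measures the spread between libraries, which may be technical.

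Phosphatidylcholine and phosphatidylethanolamine are made by adding an activated head group to diacylglycerol (the Kennedy pathway), and the liver can also methylate phosphatidylethanolamine to phosphatidylcholine. Phosphatidylserine is made by swapping the head group of an existing phospholipid, and its decarboxylation in mitochondria gives phosphatidylethanolamine. The acyl chain at the middle carbon is then exchanged in the Lands cycle, in which a phospholipase removes a chain and a lysophospholipid acyltransferase adds another, often polyunsaturated. Saturated fatty acids are known to load membranes with saturated chains and to stress the endoplasmic reticulum, and LPCAT3 is known to counter this by placing polyunsaturated chains in phosphatidylcholine.

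Of the 10 genes, the LPCAT3 row was the only one to pass the test in any comparison. It fell by 0.77 ± 0.13 on the log2 scale at 48 h against 0 h in KO cells and by 0.85 ± 0.13 in WT cells. Here and for later fold changes, ± is the standard error from 1 fit of all 24 libraries, with a spread estimated over the 6 groups together. In bulk RNA, a lower level in every cell and in some of the cells cannot be told apart. Over all genes tested, 9.82% passed at 48 h against 0 h in KO and 6.79% in WT cells. No gene of the 10 passed in any comparison of KO with WT, where at most 0.18% of all genes did. The choline kinase CHKA and the phosphatidylserine decarboxylase PISD had lower KO than WT values without overlap of the libraries at 24 h, and CHKA also at 48 h, but neither passed the test over all genes. Among all genes tested, KO and WT libraries did not overlap for 2.92% at 24 h and 4.11% at 48 h.

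These values carry a doubt about strand that bears on all 10 genes. The library kit keeps the strand of the RNA, but the setting with which fragments were counted is not given in the sources that were used here. BEST1, whose exons overlap those of the ferritin heavy chain gene FTH1 on the other strand, averaged 7758 FPKM against 845 for FTH1, and was the higher row in all 24 libraries. MRNIP, which overlaps SQSTM1 in the same way, averaged 7932 FPKM against 144 for SQSTM1, also in all 24. AC006064.4, which overlaps GAPDH on the other strand, averaged 37290 FPKM against 239 for GAPDH, again in all 24. These pairs were chosen after their values were seen. FPKM is the number of sequenced fragments scaled to transcript length and to the number of fragments mapped in that library, so it allows levels to be compared between genes. With the opposite setting, the row of a gene would hold the reads assigned to the other strand. Which of the settings was used was not tested. A gene name below therefore stands for its row in the table, and 7 of the 10 rows share exon bases with a gene on the opposite strand.

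LPCAT3 shares the most. Its exons span chromosome 12 from 6976186 to 7018510 (GRCh38, minus strand), and 3100 of its 4725 exon bases (65.6%) lie within exons of EMG1 on the plus strand, a gene for a ribosome assembly methyltransferase. The last exon of the transcript EMG1-203 (6975696 to 6979941) holds 6 of the 12 coding exons of LPCAT3-201 whole, with 784 of its 1461 coding bases (53.7%). The sequences below show 30 of these bases, read from the transcripts of GENCODE release 29, because they appear as coding sequence in one transcript and reversed and complemented in the other. They lie at chr12:6979550-6979579, and no base is capitalised because none is set apart.
LPCAT3-201 (minus strand): catcattcctgctctcaagcgcctgagtct
EMG1-203 (plus strand): agactcaggcgcttgagagcaggaatgatg
A fragment from this stretch is assigned to LPCAT3 or to EMG1 by its strand alone.

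The other overlaps are smaller. PCYT2 shares 28.1% of its exon bases with NPB and ANAPC11, CHKA 16.3% with the antisense gene AP002807.1, and CEPT1 12.5% with DRAM2, AL355816.1 and AL355816.2. PEMT shares 10.0% with AC020558.1, PCYT1A 4.9% with SLC51A, and PISD 1.9% with SFI1. LPCAT1, MBOAT7 and PTDSS1 share none, but with the opposite setting their rows too would hold reads assigned to the other strand. How far such a row would follow its own transcript was not tested. Over all protein-coding genes, 78.8% of those with such an overlap averaged 0.5 FPKM or more, with a median of 7.43 FPKM among them, against 52.1% and 3.84 FPKM for those without.

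The 10 rows spanned a wide range of level. LPCAT3 averaged 417 FPKM over the 24 libraries and CHKA 95.7 FPKM. PCYT2 averaged 20.4, PCYT1A 16.4, PISD 7.69, CEPT1 7.14, MBOAT7 5.53, LPCAT1 5.12, PTDSS1 2.76 and PEMT 0.818 FPKM. The median mean of the genes tested was 4.45 FPKM. The fragments behind the values, read from the smallest steps of the table, were estimated at 398764 to 728940 per library. LPCAT3 rested on an estimated 784 to 1373 fragments a library and CHKA on 123 to 333. The medians were 7.16 for LPCAT1, 7.25 for PTDSS1 and 11.1 for MBOAT7. Differences of less than several-fold in these rows were not detectable with the spread between their libraries. The part of depth in that spread was not tested. The residual SD between replicates was lowest for LPCAT3, at 0.17 (log2), and CHKA, at 0.23, against a median of 1.02 over all genes tested. It was 0.56 for PISD, 0.73 for PCYT2, 0.80 for PCYT1A, 0.81 for CEPT1 and 0.86 for PTDSS1, and above the median of all genes for MBOAT7 (1.18), PEMT (1.26) and LPCAT1 (1.53).

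**Figure D1:**
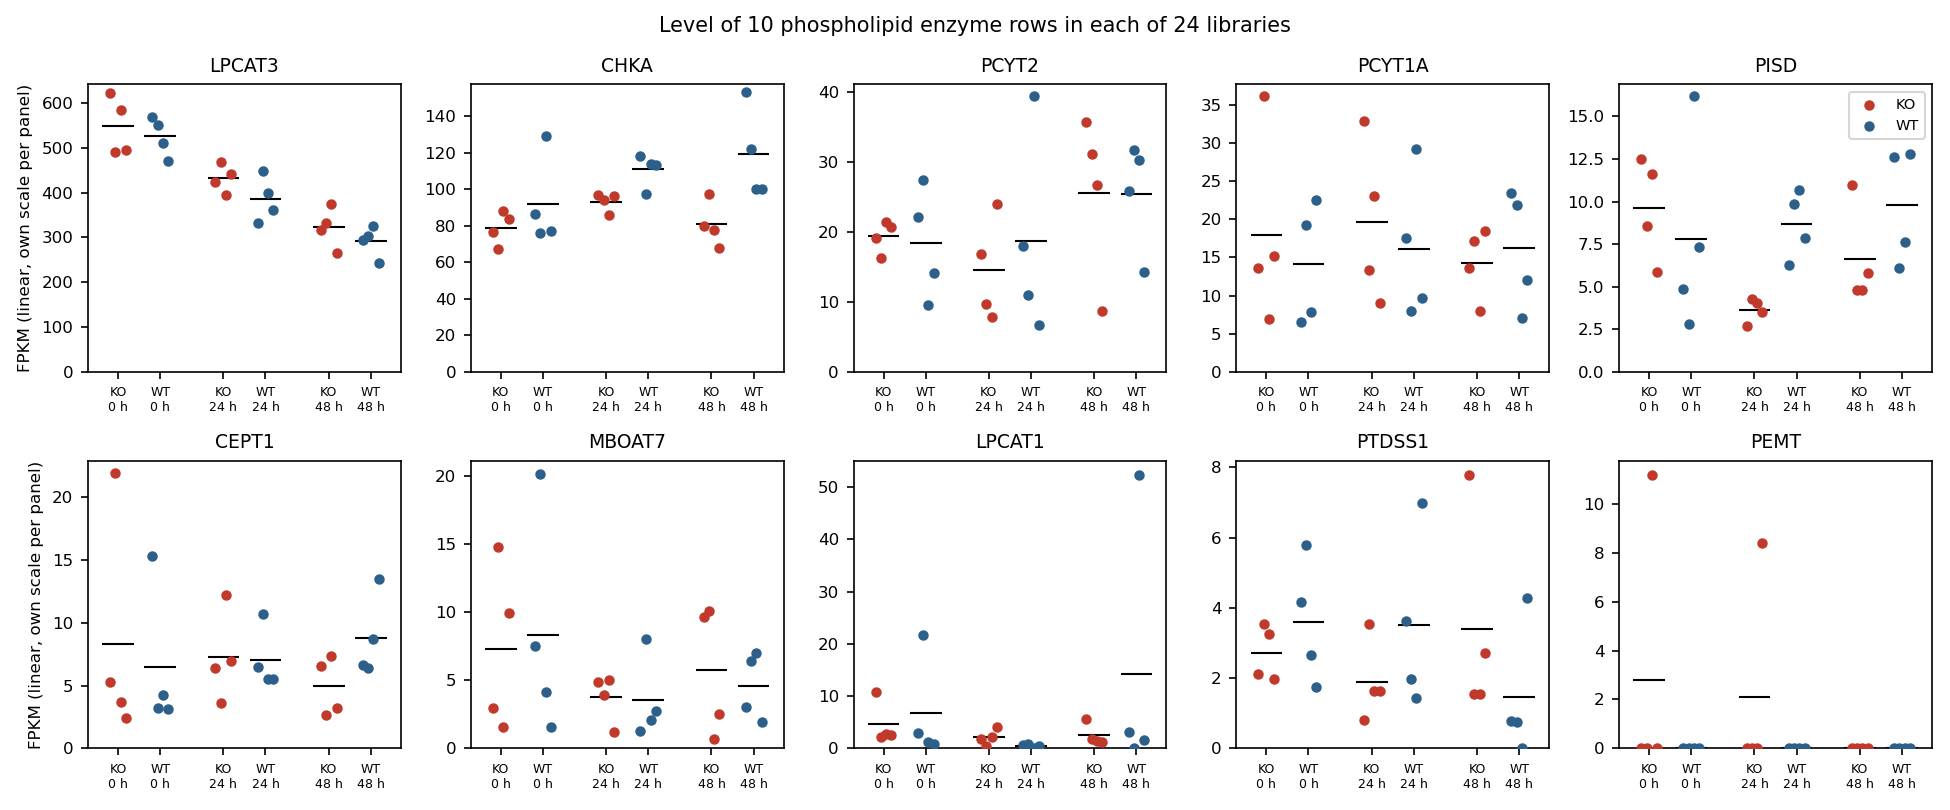
FPKM (linear axis from 0, own scale in each panel) of the 10 enzyme rows in each library, with KO in red and WT in blue at 0 h, 24 h and 48 h; bars are means of 4 libraries. The LPCAT3 row steps down with time in both genotypes, from group means of 548 (KO) and 525 (WT) FPKM at 0 h, while single libraries dominate LPCAT1, CEPT1 and PEMT.

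The values were compared as log2(FPKM + 0.5) in 1 limma fit of the 6 groups, over the 17252 genes that averaged 0.5 FPKM or more. The call was set at an adjusted p (Benjamini-Hochberg) under 0.05. All 10 genes were tested. PEMT entered through 2 KO libraries only. On this scale the change of a low row is understated.

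LPCAT3, the lysophosphatidylcholine acyltransferase that favours polyunsaturated chains, was the highest of the 10 rows. In KO cells it stood at 622, 491, 584 and 495 FPKM at 0 h, at 423, 467, 395 and 442 FPKM at 24 h and at 316, 332, 374 and 265 FPKM at 48 h. In WT cells it stood at 569, 550, 511 and 470 FPKM at 0 h, at 332, 448, 400 and 361 FPKM at 24 h and at 295, 302, 326 and 242 FPKM at 48 h. Every library at 24 h or 48 h was below every library of the same genotype at 0 h. The order of the group means was KO 0 h, WT 0 h, KO 24 h, WT 24 h, KO 48 h and WT 48 h, and of these neighbours only WT 0 h and KO 24 h did not overlap.

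At 48 h against 0 h the LPCAT3 row was called in both genotypes, with a log2 fold change of -0.77 ± 0.13 in KO cells (limma adjusted p = 0.000184) and -0.85 ± 0.13 in WT cells (adjusted p = 9.56e-05). At 24 h it was -0.34 ± 0.13 in KO cells, which did not pass (adjusted p = 0.133), and -0.45 ± 0.13 in WT cells, which passed narrowly (adjusted p = 0.0445). The KO and WT responses did not differ by the test of their difference, at 0.11 ± 0.18 at 24 h (adjusted p = 0.952) and 0.08 ± 0.18 at 48 h (adjusted p = 0.963). The step between 24 h and 48 h was -0.43 ± 0.13 in KO cells (adjusted p = 0.156) and -0.40 ± 0.13 in WT cells (adjusted p = 0.362), and passed in neither.

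The call in WT cells at 24 h is fragile. It was lost without WT 0 h replicate 0, 1 or 2 and without WT 24 h replicate 0, 2 or 3 (highest adjusted p = 0.134), and under 6 of the 10 other settings. At 48 h the call was kept without any single library in both genotypes, with log2 fold changes of -0.85 to -0.68 in KO and -0.91 to -0.77 in WT cells. The summed FPKM of a library was 1031361 to 1213284 at 0 h and 748252 to 995834 later, so that the size of a fall depends on the scaling. Rescaling each library to the same summed FPKM moved the median of all genes by 0.29 at 48 h in KO and 0.25 in WT cells, and gave LPCAT3 -0.35 (adjusted p = 0.0248) in KO and -0.53 (adjusted p = 0.00125) in WT cells. After quantile normalization it was -0.24 in KO cells, no longer called (adjusted p = 0.14), and -0.44 in WT cells (adjusted p = 0.00526). Over the 10 other settings the adjusted p lay between 8e-05 and 0.14 in KO and between 4.51e-05 and 0.0188 in WT cells.

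**Figure D2:**
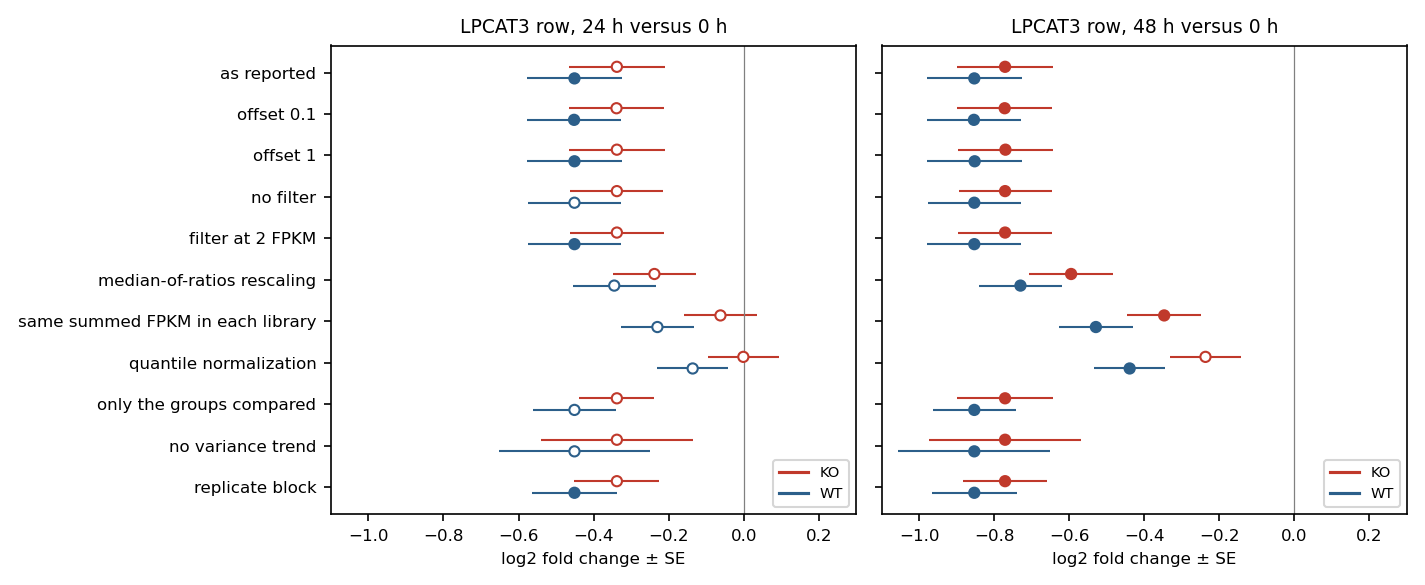
Log2 fold change ± SE of the LPCAT3 row at 24 h and 48 h against 0 h in KO (red) and WT (blue) cells under each setting; filled points have an adjusted p under 0.05. All values at 48 h lie below 0, between -0.24 and -0.77 in KO and between -0.44 and -0.85 in WT cells, and the falls are smaller wherever libraries are rescaled.

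Levels of the EMG1 row, on the other strand of the same bases, took another course. In KO cells EMG1 was at 226, 173, 219 and 215 FPKM at 0 h, at 94.2, 106, 95 and 82.8 FPKM at 24 h and at 116, 110, 114 and 91.1 FPKM at 48 h. In WT cells it was at 239, 206, 220 and 190 FPKM at 0 h, at 115, 139, 121 and 97.7 FPKM at 24 h and at 189, 168, 175 and 128 FPKM at 48 h. The group means of EMG1 were thus lowest at 24 h, and the KO and WT libraries did not overlap at 48 h. The log2 step of EMG1 between 24 h and 48 h was 0.19 ± 0.15 in KO cells (limma adjusted p = 0.789). In WT cells that step of EMG1 was 0.48 ± 0.15 (adjusted p = 0.346), and neither passed. The log2 fold change of EMG1 against 0 h was -1.14 ± 0.15 at 24 h in KO cells (adjusted p = 2.52e-05) and -0.86 ± 0.15 in WT cells (adjusted p = 0.00107). At 48 h it was -0.95 ± 0.15 in KO cells (adjusted p = 0.000104) and -0.38 ± 0.15 in WT cells, which did not pass (adjusted p = 0.144). KO against WT at 48 h gave -0.61 ± 0.15 (adjusted p = 0.201), not called.

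The ratio of the LPCAT3 to the EMG1 row within a library does not depend on library scaling. It averaged 2.64 ± 0.23 in KO and 2.46 ± 0.15 in WT cells at 0 h (SD, n = 4 each). At 24 h it was 4.60 ± 0.51 in KO and 3.28 ± 0.33 in WT cells, and at 48 h 2.99 ± 0.23 in KO and 1.78 ± 0.15 in WT cells. KO and WT overlapped at 0 h and did not overlap at 24 h (4.16 to 5.34 in KO, 2.88 to 3.69 in WT) or at 48 h (2.74 to 3.28 in KO, 1.56 to 1.90 in WT). The log2 difference, KO minus WT, was 0.10 at 0 h, 0.49 ± 0.11 at 24 h and 0.75 ± 0.08 at 48 h. For these ratios ± is the standard error from the 4 libraries of each group compared, not from the fit. Two-sided exact permutation tests of 4 against 4 libraries gave p = 0.343 at 0 h and 0.0286 at both later times, the smallest p this design allows, and 0.0667 after adjustment over the 14 ratio tests made. These ratios were chosen after the values were seen. The ratio compares the same 2 rows whichever strand was counted, and which row holds the LPCAT3 transcript was not tested.

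**Figure D3:**
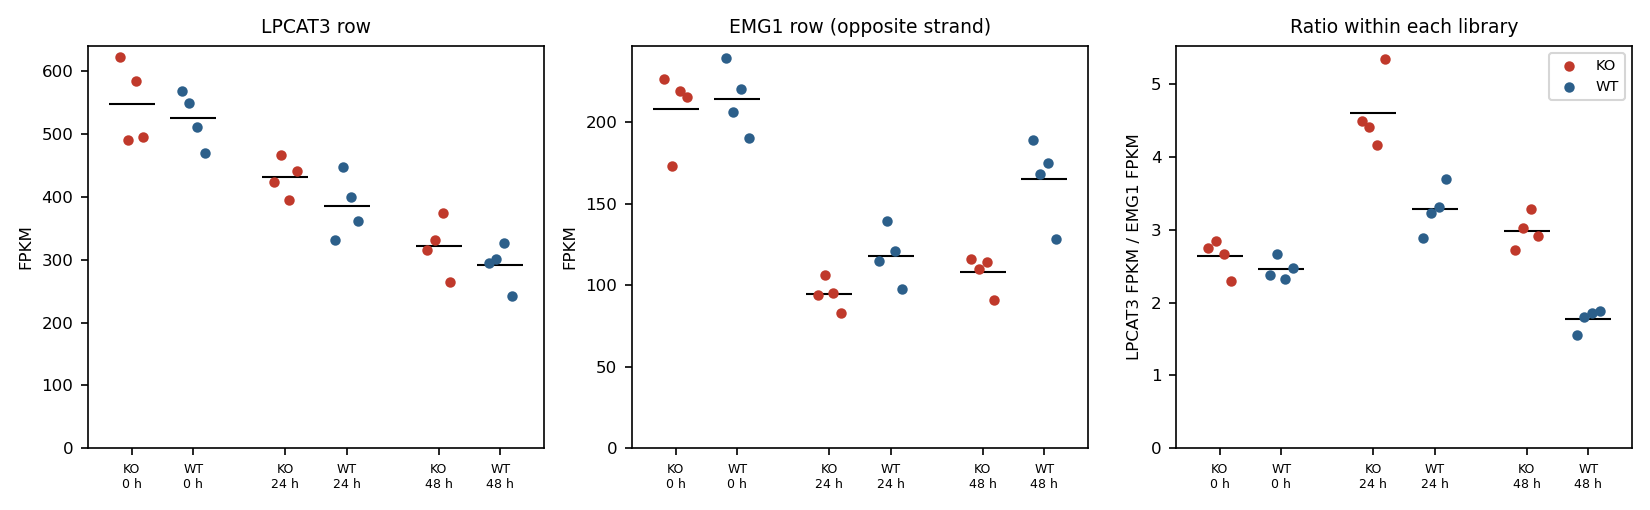
LPCAT3 FPKM, EMG1 FPKM and their ratio in each library (axes from 0), KO in red and WT in blue at 0 h, 24 h and 48 h; bars are means of 4 libraries. The ratio is alike at 0 h (2.64 in KO, 2.46 in WT) and higher in every KO library than in every WT library at 24 h and 48 h.

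The other acyltransferases were low and uneven. MBOAT7, which places arachidonate in phosphatidylinositol, ranged from 0.657 to 20.1 FPKM over the 24 libraries. Its log2 fold change at 48 h against 0 h was -0.40 ± 0.80 in KO and -0.46 ± 0.80 in WT cells (adjusted p = 0.848 and 0.833), with a 95% interval of -2.05 to 1.26 in KO cells. LPCAT1, which favours saturated palmitoyl chains and is known from lung surfactant, was at 0 in 2 libraries and at 52.4 FPKM in WT 48 h replicate 2. At 24 h it was at 1.72, 0.5, 2.16 and 4.1 FPKM in KO and at 0.726, 0.8, 0 and 0.517 FPKM in WT cells. Each WT library at 24 h was below each at 0 h (2.94, 21.7, 1.25 and 0.851 FPKM), with a log2 fold change of -1.95 ± 1.03 (adjusted p = 0.371).

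CHKA phosphorylates choline in the first step of the Kennedy pathway and was the second highest row. It was at 76.6, 67.4, 88.2 and 83.9 FPKM in KO and at 86.6, 75.9, 129 and 77.3 FPKM in WT cells at 0 h. At 24 h it was at 96.9, 93.8, 85.9 and 96 FPKM in KO and at 118, 97.5, 114 and 113 FPKM in WT cells. At 48 h it was at 80, 97.6, 77.9 and 67.6 FPKM in KO and at 153, 122, 100 and 100 FPKM in WT cells. The genotypes overlapped at 0 h, and every KO library was below every WT library at 24 h and at 48 h. KO minus WT was -0.19 ± 0.18 at 0 h, -0.25 ± 0.18 at 24 h and -0.54 ± 0.18 at 48 h on the log2 scale. None passed over all genes (adjusted p = 0.883, 0.986 and 0.488), nor did the value averaged over the times, -0.33 ± 0.10 (unadjusted p = 0.00403, adjusted p = 0.352). The response at 48 h was 0.03 ± 0.18 in KO and 0.38 ± 0.18 in WT cells, and their difference of -0.35 ± 0.25 did not pass (adjusted p = 0.844). The WT value was called after quantile normalization, at 0.63 (adjusted p = 0.0238), and with the same summed FPKM in each library, at 0.70 (adjusted p = 0.0128), within a range of 0.0128 to 0.426 over the 10 other settings.

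AP002807.1, antisense to CHKA, stood far above it, at a mean of 3100 FPKM in KO and 2780 FPKM in WT cells at 48 h. Its KO and WT libraries overlapped at each time, and KO minus WT at 48 h was 0.16 ± 0.14 (adjusted p = 0.932). At 24 h against 0 h it rose by 0.47 ± 0.14 in KO cells (adjusted p = 0.0402), a call that ended in 7 of the 8 fits without 1 library, and was at 0.43 ± 0.14 in WT cells (adjusted p = 0.0806). The ratio of CHKA to AP002807.1 at 48 h was 0.0261 ± 0.00326 in KO and 0.0431 ± 0.00937 in WT cells (SD, n = 4 each). The libraries did not overlap (exact permutation test, p = 0.0286, adjusted 0.0667).

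The enzymes that activate the head groups with CTP, the rate-limiting step of the pathway, showed no called change. PCYT1A, for the choline branch, ranged from 6.93 to 36.2 FPKM in KO and from 6.53 to 29.2 FPKM in WT cells, and KO minus WT averaged over the times was 0.17 ± 0.31 with a 95% interval of -0.48 to 0.81. PCYT2, for the ethanolamine branch, was at 35.8, 31.2, 26.7 and 8.66 FPKM in KO and at 25.9, 31.7, 30.3 and 14.3 FPKM in WT cells at 48 h. At 0 h it was at 19.2, 16.3, 21.5 and 20.8 FPKM in KO and at 22.2, 27.5, 9.55 and 14.2 FPKM in WT cells, so that the times overlapped in both genotypes. The log2 fold change at 48 h was 0.22 ± 0.49 in KO and 0.51 ± 0.49 in WT cells (adjusted p = 0.868 and 0.647). The rows on its other strand did change: NPB fell by 0.59 ± 0.15 in KO cells (adjusted p = 0.0128) and by 0.69 ± 0.15 in WT cells (adjusted p = 0.00583) at 48 h. ANAPC11 fell by 0.97 ± 0.22 in KO cells (adjusted p = 0.00452) and by 1.01 ± 0.22 in WT cells (adjusted p = 0.00512). After quantile normalization none of these 4 falls was called, and NPB in KO cells turned to 0.04. ANAPC11 shares 27 bases with PCYT2, whereas NPB has 89.8% of its own exon bases inside PCYT2.

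CEPT1, the choline and ethanolamine phosphotransferase that completes the Kennedy pathway, ranged from 2.44 to 21.9 FPKM in KO and from 3.12 to 15.3 FPKM in WT cells. At 48 h it was at 6.52, 2.64, 7.34 and 3.2 FPKM in KO and at 6.65, 6.4, 8.68 and 13.5 FPKM in WT cells, a difference of -0.83 ± 0.57 (adjusted p = 0.9). These groups overlapped. Among its overlapping rows, AL355816.2 averaged 625 FPKM in KO and 650 FPKM in WT cells at 48 h, far above CEPT1. It fell at 48 h by 0.42 ± 0.12 in KO and 0.51 ± 0.12 in WT cells (adjusted p = 0.021 and 0.00704), turning to 0.23 and 0.02 after quantile normalization and to 0.005 in KO cells with the same summed FPKM in each library.

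PEMT, the liver methyltransferase that turns phosphatidylethanolamine into phosphatidylcholine, was at 0 in 22 of the 24 libraries. It was at 11.2 FPKM in KO 0 h replicate 2 and at 8.42 FPKM in KO 24 h replicate 3, and 1 fragment on its exons equals 0.798 to 1.46 FPKM. No fold is given for it. The overlapping row AC020558.1 was above 0 in every library, at 59 to 255 FPKM in KO and 93.7 to 280 FPKM in WT cells.

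PISD makes phosphatidylethanolamine from phosphatidylserine in mitochondria. At 24 h it was at 2.68, 4.25, 4.03 and 3.49 FPKM in KO and at 6.26, 9.86, 10.7 and 7.88 FPKM in WT cells, with no overlap. At 0 h it was at 12.5, 8.56, 11.6 and 5.86 FPKM in KO and at 4.89, 2.83, 16.2 and 7.34 FPKM in WT cells. Every KO library at 24 h was thus also below every KO library at 0 h. The log2 difference of KO and WT at 24 h was -1.15 ± 0.43 (unadjusted p = 0.0141, adjusted p = 0.876), and at 24 h against 0 h the KO value was -1.26 ± 0.43 (adjusted p = 0.0943) and the WT value 0.37 ± 0.43 (adjusted p = 0.743). The difference of these responses was -1.63 ± 0.61 (adjusted p = 0.883). At 48 h PISD was at 11, 4.82, 4.83 and 5.81 FPKM in KO and at 12.6, 6.12, 7.64 and 12.8 FPKM in WT cells, which overlapped. These rows rest on an estimated 6.21 to 46.6 fragments a library.

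PTDSS1, which makes phosphatidylserine from phosphatidylcholine, was at 7.79, 1.56, 1.55 and 2.72 FPKM in KO and at 0.769, 0.735, 0 and 4.28 FPKM in WT cells at 48 h. The genotypes overlapped, with a log2 difference of 1.23 ± 0.64 (adjusted p = 0.81). Its WT value at 48 h against 0 h was -1.45 ± 0.64 (adjusted p = 0.212), on values at 0 h of 4.16, 5.8, 2.67 and 1.75 FPKM.

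**Figure D4:**
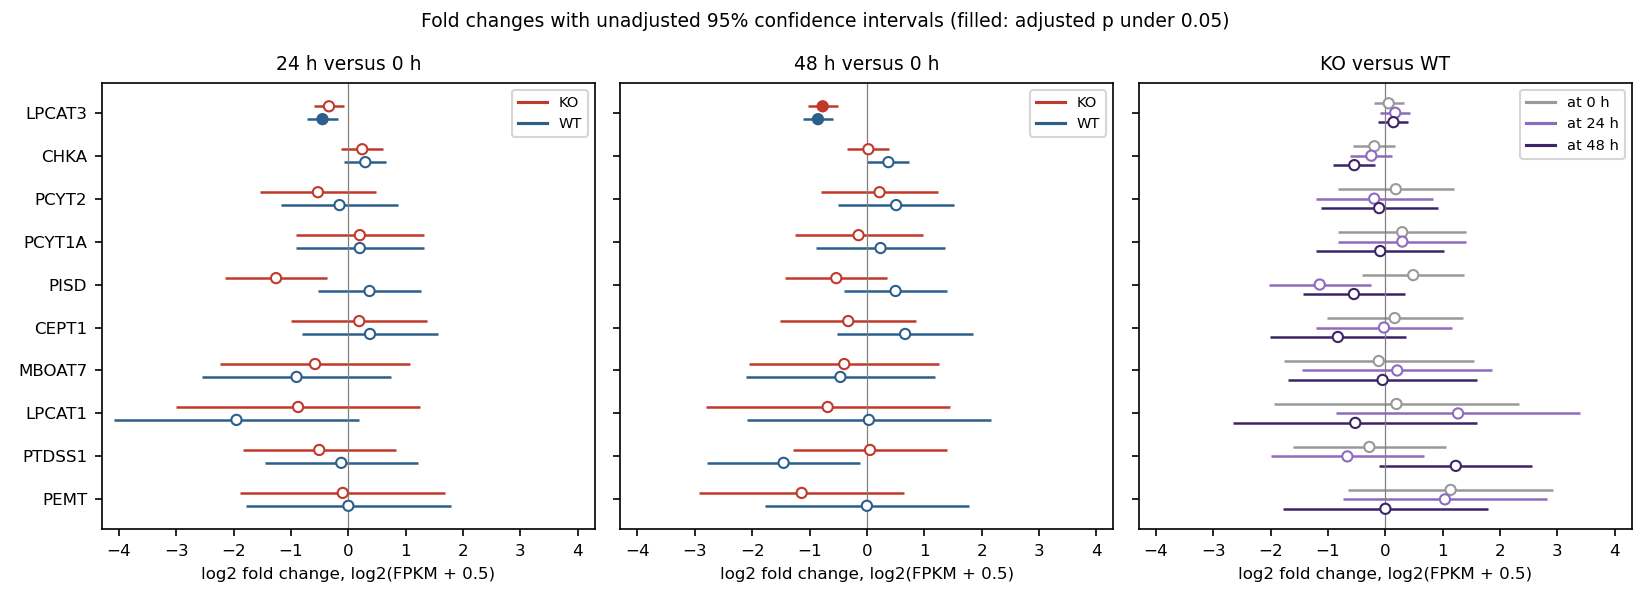
Log2 fold changes of the 10 rows with unadjusted 95% confidence intervals at 24 h and 48 h against 0 h in KO (red) and WT (blue) cells, and for KO against WT at each time; filled points have an adjusted p under 0.05. The LPCAT3 row holds the only filled points, at 48 h in both genotypes and at 24 h in WT cells, and the intervals of LPCAT3 and CHKA are the narrowest of the 10.

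Over the 10 genes, 1 was called at 48 h against 0 h in KO cells, where 9.82% of all genes tested were called, and 1 in WT cells, where 6.79% were. At 24 h against 0 h none was called in KO cells (5.64% of all genes) and 1 in WT cells (4.06%). Counts of 1 in 10 are near these shares. Between 48 h and 24 h none was called in KO (0.516%) or WT cells (0.122%). For KO against WT none was called at 0 h (0.0985%), 24 h (0.0116%), 48 h (0.0638%) or averaged over the times (0.18%). The limma count at an unadjusted p under 0.05 was 0 of 10 at 0 h, against 6.92% of all genes tested, and 1 of 10 at 24 h (5.17%), at 48 h (6.56%) and averaged over the times (6.82%). A count of 1 in 10 is near these shares too. None was called for the difference between the responses of KO and WT cells at 24 h (0%, with 950 genes at an unadjusted p under 0.05) or at 48 h (0.0522%). The median log2 fold change of the 10 rows at 48 h against 0 h was -0.36 in KO and 0.14 in WT cells, against 0 for all genes tested in both. These medians take in PEMT, which was above 0 in 2 KO libraries only. Apart from LPCAT3 and CHKA, the standard errors of the rows were 0.43 to 1.03. A shift of the 10 rows as a set was not tested.

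Libraries of the compared groups did not overlap for 2 of the 10 genes in KO against WT at 24 h (CHKA and PISD) and for 1 at 48 h (CHKA), all lower in KO. At 0 h there was none. Over all genes tested the share without overlap was 2.92% at 24 h, 4.11% at 48 h and 2.72% at 0 h. Against 0 h, 2 genes did not overlap at 24 h in KO cells (LPCAT3 and PISD, 11.2% of all genes) and 2 in WT cells (LPCAT1 and LPCAT3, 9.21%). At 48 h only LPCAT3 did not overlap, in KO (15.2%) and in WT cells (11.7%).

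Other genes of the same pathways were listed by function. Of 8 further head group genes, 7 were tested and 2 passed, both higher at 48 h against 0 h in KO cells, where 9.82% of all genes passed. ETNK1, an ethanolamine kinase, was at 17.7, 20.4, 5.52 and 6.36 FPKM at 48 h and at 1.49, 5.01, 1.57 and 1.33 FPKM at 0 h in KO cells, without overlap. It rose by 2.14 ± 0.57 on the log2 scale (adjusted p = 0.0155), a call lost without KO 48 h replicate 0 or 1 (adjusted p up to 0.0669) and with only the groups compared (adjusted p = 0.0779). In WT cells ETNK1 was at 18.4, 5.04, 5.54 and 5.43 FPKM at 48 h and at 11.3, 3.84, 12.7 and 7.75 FPKM at 0 h, which overlapped. CHKB, the second choline kinase, was at 2.39, 3.83, 6.67 and 2.03 FPKM in KO cells at 48 h and listed at 0 in all 4 at 0 h, so no fold is given (adjusted p = 0.0396). Its call ended without any 1 of the 8 libraries.

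Of 9 further genes for acidic phospholipids and cardiolipin, all tested, PTPMT1 alone passed. Of all genes, 5.64% passed at 24 h and 9.82% at 48 h in KO cells, and 4.06% and 6.79% in WT cells. PTPMT1 passed in each of these comparisons with 0 h. It encodes a mitochondrial phosphatase that makes phosphatidylglycerol, the precursor of cardiolipin. PTPMT1 was at 90.2, 91.5, 100 and 96.1 FPKM at 48 h and at 241, 315, 417 and 206 FPKM at 0 h in KO cells, and at 135, 116, 90.4 and 84.3 FPKM at 48 h and 230, 312, 290 and 168 FPKM at 0 h in WT cells. It fell by 1.59 ± 0.21 in KO (adjusted p = 1.24e-05) and by 1.21 ± 0.21 in WT cells (adjusted p = 0.000578) at 48 h, and by 1.27 ± 0.21 in KO (adjusted p = 0.000428) and 0.95 ± 0.21 in WT cells (adjusted p = 0.00869) at 24 h. All 4 calls held without any single library. The WT call at 24 h was lost with only the groups compared (adjusted p = 0.0769) and with no variance trend (adjusted p = 0.0622). The exons of PTPMT1 overlap KBTBD4 and CELF1 on the opposite strand, so its row carries the same doubt as LPCAT3.

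None of the 8 tested genes among 11 other acyltransferases passed in any of the 12 comparisons, nor did any of the 3 tested among 6 genes of S-adenosylmethionine supply and use, the methyl donor for PEMT. Of 12 phospholipase and lysophospholipase genes, all tested, ABHD3 alone passed, once, at 48 h against 0 h in WT cells (6.79% of all genes). ABHD3, a phospholipase that acts on medium-chain and oxidised phosphatidylcholines, was at 36.5, 8.28, 11.7 and 17 FPKM at 48 h and at 4.78, 9.27, 1.25 and 2.39 FPKM at 0 h in WT cells, and the lowest library at 48 h lay below the highest at 0 h. Its log2 rise of 2.02 ± 0.55 (adjusted p = 0.025) was not called once replicate 2 or 3 of WT 0 h, or replicate 0 or 3 of WT 48 h, was left out (adjusted p up to 0.104), nor with only the groups compared (adjusted p = 0.162).

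Among 5 ether lipid genes, 4 of them tested, FAR2, a fatty acyl-CoA reductase, passed in 3 comparisons. In these, 5.64% to 9.82% of all genes passed. It fell at 24 h by 1.02 ± 0.25 in KO cells (adjusted p = 0.0144) and at 48 h by 0.80 ± 0.25 in KO (adjusted p = 0.0419) and 0.87 ± 0.25 in WT cells (adjusted p = 0.0354). These calls are fragile. Each was lost in at least 2 of the 8 fits without 1 library and in at least 4 of the 10 other settings. After quantile normalization the values were -0.71 in KO cells at 24 h (adjusted p = 0.106), -0.31 in KO cells at 48 h (adjusted p = 0.524) and -0.50 in WT cells at 48 h (adjusted p = 0.29). FAR2 overlaps ERGIC2 and 2 further genes on the opposite strand.

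LPCAT3 is a known target of the liver X receptors (LXR). Of 8 other LXR targets and receptors 7 were tested and SCD passed at 48 h against 0 h, in KO (9.82% of all genes) and WT cells (6.79%). SCD, the desaturase that makes oleate and palmitoleate, was at 222, 214, 215 and 213 FPKM at 48 h and at 98.7, 112, 104 and 94.2 FPKM at 0 h in KO cells. In WT cells it was at 231, 237, 189 and 292 FPKM at 48 h and at 108, 108, 132 and 170 FPKM at 0 h. SCD rose by 1.08 ± 0.15 in KO (adjusted p = 2.48e-05) and by 0.88 ± 0.15 in WT cells (adjusted p = 0.00051), opposite in sign to LPCAT3. Both calls held without any single library, and the WT call was lost with only the groups compared (adjusted p = 0.0554). Over the 7 tested genes, SCD included, the median log2 fold change at 48 h against 0 h was -0.455 in KO and 0.047 in WT cells. A part of LXR in the fall of LPCAT3 was not tested. SCD has no gene annotated on its opposite strand, but its row is open to the same doubt about strand.

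The genes whose log2 values were most alike to LPCAT3 over the 24 libraries were IPPK (Pearson r = 0.932), TTI2 (0.926) and CCDC85C (0.925), of 6236 candidates. The libraries share times and scaling, and each of these 3 genes also overlaps a gene on the opposite strand.

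The cell type was checked on marker lists. All 10 hepatocyte markers were tested, their summed level was 841 to 2056 FPKM a library, and the fetal liver gene AFP was at 123 to 285 FPKM. Markers of other liver cell types were present in part. Of 5 stellate markers 2 averaged at least 0.5 FPKM, the list summed to 0 to 7.89 FPKM in KO and 0 to 10.1 FPKM in WT libraries, and DCN was at 0 in all 24. Of 4 immune markers 3 averaged at least 0.5 FPKM, with sums of 2.95 to 35.7 FPKM in KO and 0 to 21.5 FPKM in WT libraries. CD68 was above 0 in 21 libraries and PTPRC in 3. Of 4 endothelial markers PECAM1 was above 0 in all 24 libraries, at 0.462 to 18 FPKM, while VWF, CDH5 and KDR were at 0 in every one. Of 4 biliary markers 3 averaged at least 0.5 FPKM, with sums of 14.58 to 52.55 FPKM in KO and 12.25 to 34.2 FPKM in WT libraries. SOX9 was above 0 in all 24, at 10.2 to 33 FPKM, EPCAM in 21 and KRT19 in 6, and KRT7 was at 0 in every library.

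The hepatocyte list moved with time. Its sum lay between 949 and 1067 FPKM in KO and between 1095 and 1333 FPKM in WT libraries at 0 h. At 24 h it lay between 841 and 1011 FPKM in KO and between 1027 and 1273 FPKM in WT libraries, and at 48 h between 1665 and 1858 FPKM in KO and between 1791 and 2056 FPKM in WT libraries. The genotypes overlapped at 48 h only, and both were highest there. At 24 h against 0 h 2 of the 10 markers fell and 0 rose in each genotype, where 5.64% of all genes were called in KO and 4.06% in WT cells. At 48 h against 0 h 4 rose and 1 fell in KO cells (9.82% of all genes called) and 6 rose in WT cells (6.79%). For KO against WT averaged over the times 3 were lower in KO (0.18%). Mitochondrial transcripts held 3.20% to 4.43% of the summed FPKM in KO and 3.26% to 3.80% in WT libraries at 0 h, and 10.45% to 12.63% in KO and 11.26% to 13.45% in WT libraries at 24 h. At 48 h they held 13.18% to 14.95% in KO and 10.4% to 12.1% in WT libraries, without overlap. Genes annotated as antisense held 56.62% to 57.92% in KO and 56.05% to 58.12% in WT libraries at 0 h, 46.13% to 47.51% in KO and 45.03% to 48.83% in WT libraries at 24 h, and 43.96% to 45.09% in KO and 44.28% to 47.35% in WT libraries at 48 h. The part of these shifts and of the marker lists in the results above was not tested. ABHD6 itself, with a mean of 0.239 FPKM, was above 0 in 4 of 12 KO and 3 of 12 WT libraries, so its row does not check the genotype labels.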

How the data were processed

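Libraries from a directional Illumina mRNA kit were read as 1 table of FPKM values made and deposited by the authors. Per the submitters' processing notes the tools were STAR, Cufflinks and Cuffdiff and the build GRCh38, with no roles or versions given. The notes give no scaling between libraries, and none was added in the main analysis. Times come from the sample titles, since the treatment protocol names a harvest on day 1 only. The precision rests on estimated fragments, since no counts were used, and fragments were read from FPKM steps on single-transcript genes of at least 1500 bases.

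Gene names and overlaps came from GENCODE 29, matched to 57375 identifiers (99.0%). The 45 chromosome Y copies of shared genes were left out. PISD had another identifier version in the table than in GENCODE 29. log2(FPKM + 0.5) was fitted in limma 3.58.1 (R 4.3.3) with a variance trend, 18 residual degrees of freedom and 12 comparisons, and the code was tested on simulated data. The 10 genes and the other lists were chosen with earlier results of these data known. Of each other list, up to 4 called genes per comparison were named, by adjusted p, with the overlapping genes and the 3 most alike to the gene of smallest adjusted p. Alternatives were offsets of 0.1 and 1, no filter, a filter at 2 FPKM, 2 rescalings, quantile normalization, the compared groups alone, no variance trend, a replicate block and each library left out. The summed FPKM rescaling and the ratio tests (scipy 1.17.1) were chosen after seeing the data.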

Additional observations from a re-analysis of the deposited data

Results flagged for a closer look

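Of 56 groups of 4 libraries examined for the 10 genes, 9 held a library set far apart from the other 3, which is 16.1%. Chance flags about 1 in 20 groups where values are normally distributed. Over all genes tested, by the same rule, 18.5% of groups with any spread held such a library, so that the share among the 10 genes does not stand above it. LPCAT1 held 4 of them. It was at 10.8 FPKM in KO 0 h replicate 0 (others 2.23 to 2.71), at 21.7 FPKM in WT 0 h replicate 1 (others 0.851 to 2.94), at 5.58 FPKM in KO 48 h replicate 0 (others 1.27 to 1.71) and at 52.4 FPKM in WT 48 h replicate 2 (others 0 to 3.22). CEPT1 was at 21.9 FPKM in KO 0 h replicate 1 (others 2.44 to 5.24) and at 15.3 FPKM in WT 0 h replicate 0 (others 3.12 to 4.21). PEMT was at 11.2 FPKM in KO 0 h replicate 2 and at 8.42 FPKM in KO 24 h replicate 3, with the other 3 libraries at 0 in each case. PISD was at 11 FPKM in KO 48 h replicate 0 (others 4.82 to 5.81). LPCAT3 and CHKA, the rows with the most fragments, held none. No gene of the 10 was called for a difference between the KO and WT responses.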

How the results depend on the processing

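The count of called genes among the 10 kept within 1.5 times its reported value in 9 of the 12 comparisons under every setting. For WT 24 h against 0 h it was 1 as reported and 0 with no filter, median-of-ratios rescaling, quantile normalization, the same summed FPKM in each library, only the groups compared, or no variance trend, and 0 to 1 with 1 library left out. For KO 48 h against 0 h it was 0 after quantile normalization. For WT 48 h against 0 h it was 2 (LPCAT3 and CHKA) after quantile normalization and with the same summed FPKM. No fold change of the 10 genes that was called turned its sign. Among the other genes, quantile normalization turned NPB in KO cells to 0.04 and AL355816.2 to 0.229 in KO and 0.024 in WT cells at 48 h, and the same summed FPKM turned AL355816.2 in KO cells to 0.005. The cause was not tested. Among all genes the calls of WT 24 h against 0 h numbered 701 as reported, 355 with only the groups compared and 334 without the trend. For KO 24 h they were 973, 617 and 639, and for WT 48 h 1171, 591 and 750. The share of calls that were higher was 34.6% for KO 48 h and 37.8% for WT 48 h as reported, 49% and 50.3% after median-of-ratios rescaling, and 69.2% and 72.1% with the same summed FPKM. With the replicate block, LPCAT3 stayed called at 48 h (KO 8e-05, WT 4.51e-05, adjusted p) and the counts of called genes were 1 for KO 48 h, 1 for WT 48 h and 1 for WT 24 h. Same-numbered libraries correlated at -0.125 to 0.144 in their residuals (median 0.008, 60 pairs), and 7 of 24 correlated best with their own number, so the numbers were not taken as pairs. With a filter at 2 FPKM PEMT had no value. In LPCAT1, PTDSS1, MBOAT7 and PEMT, which have few fragments, only large differences could be detected.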
